A study of Mus musculus with 10 samples.

Results

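The genes described here serve the uptake of filtered protein by the kidney proximal tubule. They are the 8 genes Lrp2, Cubn, Amn, Dab2, Clcn5, Ocrl, Lrpap1 and Fcgrt, chosen by name, of 43629 genes listed in the count table. All 8 were found, and all 8 were among the 10055 genes that had enough reads to be tested. The samples were kidneys of male UM-HET3 mice, a genetically heterogeneous stock, taken at 4 months of age. The 6 control mice ate Purina 5LG6 diet, and the 4 rilmenidine mice ate that diet with 10 ppm of the antihypertensive drug rilmenidine for 1 month from 3 months of age. Each library came from one kidney sample, and the comparison asks whether the drug altered the RNA level of these genes in the whole organ.

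Plasma proteins that pass the glomerulus are recovered by cells of the proximal tubule. The giant receptors megalin (Lrp2) and cubilin (Cubn) bind albumin, vitamin carriers and hormones at the apical membrane. Cubilin has no membrane anchor of its own and reaches the surface with amnionless (Amn). The adaptor Dab2 links the receptors to clathrin, the chloride-proton exchanger ClC-5 (Clcn5) supports acidification of endosomes, and the lipid phosphatase OCRL (Ocrl) acts on endosomal phosphoinositides. The chaperone RAP (Lrpap1) escorts megalin through the secretory pathway, and the neonatal Fc receptor (Fcgrt) returns albumin and immunoglobulin G from endosomes. Loss of Clcn5 or Ocrl is known in human disease as a cause of low-molecular-weight proteinuria.

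Sequences upstream of the start sites are shown for the receptor genes Lrp2, Cubn and Amn, whose levels are compared first, and for Clcn5, the member with the smallest p-value. They are RefSeq sequences of GRCm38.p6, written 5′ to 3′ on the strand of the gene, and they leave out bases that an annotated exon covers. Capitals mark matches, on either strand, to short motifs. The GC box was searched as GGGCGG. The E-box was searched as CACGTG. The TATA box was searched as TATAAA. The box bound by the factor NF-Y was searched as CCAAT.
Lrp2, chr2:69586066-69586279, minus strand: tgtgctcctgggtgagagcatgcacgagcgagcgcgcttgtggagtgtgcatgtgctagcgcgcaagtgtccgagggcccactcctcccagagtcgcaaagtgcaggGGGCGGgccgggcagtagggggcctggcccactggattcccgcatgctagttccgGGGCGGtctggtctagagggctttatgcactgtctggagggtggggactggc
Cubn, chr2:13491877-13492126, minus strand: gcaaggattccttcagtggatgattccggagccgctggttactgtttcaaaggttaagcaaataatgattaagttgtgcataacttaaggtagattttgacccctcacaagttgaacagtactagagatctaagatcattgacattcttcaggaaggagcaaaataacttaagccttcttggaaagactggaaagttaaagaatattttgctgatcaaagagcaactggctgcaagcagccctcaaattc
Amn, chr12:111270846-111271094, plus strand: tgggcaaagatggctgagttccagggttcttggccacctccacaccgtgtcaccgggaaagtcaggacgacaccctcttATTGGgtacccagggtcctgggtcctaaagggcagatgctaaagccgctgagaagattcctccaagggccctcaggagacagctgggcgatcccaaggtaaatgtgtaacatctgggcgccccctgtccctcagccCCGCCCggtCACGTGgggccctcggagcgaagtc
Clcn5, first start, chrX:7319359-7319608, minus strand: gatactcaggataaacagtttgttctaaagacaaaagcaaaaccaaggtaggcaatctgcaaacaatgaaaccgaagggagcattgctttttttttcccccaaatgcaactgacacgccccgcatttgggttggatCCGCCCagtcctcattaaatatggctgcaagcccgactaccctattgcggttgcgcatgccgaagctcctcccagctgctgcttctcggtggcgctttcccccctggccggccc
Clcn5, inner start, chrX:7188715-7188964, minus strand: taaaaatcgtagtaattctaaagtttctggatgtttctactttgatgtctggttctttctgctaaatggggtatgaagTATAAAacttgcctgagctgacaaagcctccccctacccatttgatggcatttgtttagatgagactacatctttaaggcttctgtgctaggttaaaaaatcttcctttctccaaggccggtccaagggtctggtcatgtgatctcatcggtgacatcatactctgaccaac
The receptor genes differed in these windows. Lrp2 had 66.4% G and C with 2 GC boxes, Amn had 61.2% with 1 GC box, 1 E-box and 1 CCAAT, and Cubn had 39.6% with no match. The first start of Clcn5 had 1 GC box, and the inner start had 1 TATAAA. Of 32851 windows of 250 bases before annotated starts, 32.7% held a GC box, 33.8% held CCAAT, 12.4% held TATAAA and 6.02% held the E-box. Windows shorter than 250 bases, such as that of Lrp2 with 214, had less room for a match. The counts are per gene, so the starts of Clcn5 could not be told apart in the data.

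The libraries held 863605 to 2559118 counts in control kidneys and 1813465 to 3232063 in rilmenidine kidneys. The labels assign all samples to kidney, although their extraction text speaks of liver. All 12 proximal tubule marker genes on the list had counts in every library, with a summed level of 50038 to 64200 normalized CPM (CPM, the usual depth-scaled unit, with library sizes scaled by RLE) in control and 51868 to 77096 in rilmenidine kidneys. Of the liver genes, Alb reached 20 counts, Apoa1 4, Fgb 10 and Ahsg 8, each in the library where it was highest. Apoa2 reached 9 and Serpina1c 28. Cyp2e1, on the same list, went the other way with 1477 to 8318 counts (1568 to 2812 CPM). Malat1, a nuclear noncoding RNA, had 1182 to 2100 CPM in 4 control kidneys (replicates 1, 3, 4 and 5). It had 284 to 398 CPM in the other 2 control kidneys, and 306 to 393 CPM in the rilmenidine kidneys.

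None of the 8 genes passed an adjusted p-value of 0.05 between rilmenidine and control kidneys (Benjamini-Hochberg over all genes, edgeR's quasi-likelihood test). Of all genes tested, 0.0% passed (0 of 10055). Clcn5 was lower with rilmenidine at an unadjusted p-value under 0.05, which makes 1 of 8 members beside 10.6% of all genes, split into 4.43% higher and 6.13% lower. That count was 1 to 3 when each kidney was left out (3 without rilmenidine 2, 2 without control 1 or rilmenidine 4), 2 with DESeq2 or with genes of at least 1 count kept, and 0 with log2 Malat1 as a covariate or in the kidneys under 1000 CPM of Malat1. Fitted log2 fold changes were above 0 for 4 members and below 0 for 4, from −0.44 for Clcn5 to 0.44 for Fcgrt. Their median was 0.05, and that of all genes tested was 0.00. The kidneys of both groups overlapped for each of the 8 genes, where 1.67% of all genes had groups that did not overlap.

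**Figure D1:**
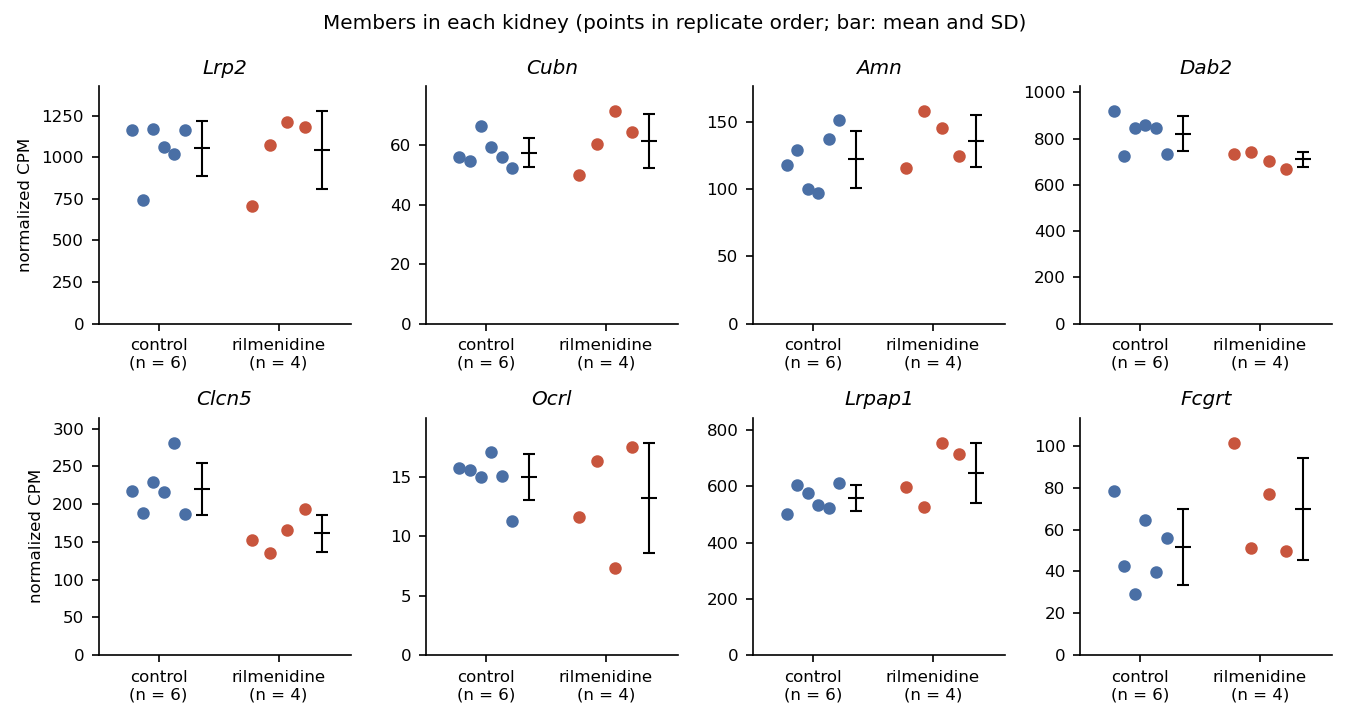
Normalized CPM (vertical axis, from 0) of the 8 members in each kidney, with control kidneys in blue and rilmenidine kidneys in red in order of their replicate number, and with the mean and SD of each group beside them. The groups overlap in every panel, and the rilmenidine kidneys sit low for Clcn5 (135 to 193 CPM against 188 to 281) and Dab2 (669 to 741 against 726 to 917).

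Lrp2 (ENSMUSG00000027070; GRCm38 chromosome 2, 69424340 to 69586065) encodes megalin, the multiligand receptor of the brush border. Control kidneys had 741 CPM at the lowest, 1110.5 at the median and 1169 at the highest. Rilmenidine kidneys 1 to 4 had 707, 1072, 1212 and 1183 CPM. Control 2 and rilmenidine 1 were low, and the other 8 kidneys lay between 1023 and 1212 CPM whichever diet they came from. The means were 1053 ± 165 (SD, n = 6) and 1044 ± 232 (SD, n = 4) CPM, and the log2 fold change was −0.01, with a 95% interval from −0.37 to 0.35 (p-value 0.942, adjusted p-value 0.988 in edgeR's quasi-likelihood test). On the linear scale this interval runs from 0.773-fold to 1.27-fold, so a larger shift of the group mean in either direction lies outside it. The sign was not stable, as the log2 fold change was 0.13 without rilmenidine 1 and −0.10 without control 2.

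Cubn (ENSMUSG00000026726; chromosome 2, 13276338 to 13491813) encodes cubilin, the receptor for albumin and for the cobalamin carrier intrinsic factor. Its levels in control kidneys ran from 52.2 over a median of 56.1 to 66.4 CPM, and rilmenidine kidneys 1 to 4 had 49.9, 60.3, 71.4 and 64.3 CPM. The lowest and the highest value were both in rilmenidine kidneys. With 57.5 ± 4.96 (SD, n = 6) and 61.5 ± 8.98 (SD, n = 4) CPM, the log2 fold change was 0.11 (95% interval −0.18 to 0.40, adjusted p-value 0.839 in the quasi-likelihood test). It was 0.03 without rilmenidine 3 and 0.19 without rilmenidine 1. Counts of Cubn were 50 to 206 per library, against 1035 to 3789 for Lrp2.

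Amn (ENSMUSG00000021278; chromosome 12, 111271095 to 111276426) encodes amnionless, which anchors cubilin in the membrane. Control kidneys had from 97.3 to 151 CPM with a median of 124, and rilmenidine kidneys 1 to 4 had 116, 158, 146 and 125 CPM. Rilmenidine 2 lay above the control range, rilmenidine 3 in its upper part, rilmenidine 4 near the control median and rilmenidine 1 below that median. The log2 fold change was 0.15 (95% interval −0.16 to 0.46, adjusted p-value 0.773 in the quasi-likelihood test). It was 0.07 without rilmenidine 2 and 0.22 without control 6. The intervals of Cubn and Amn, like that of Lrp2, include 0.

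Dab2 (ENSMUSG00000022150; chromosome 15, 6299788 to 6440712) encodes the adaptor that binds the tails of megalin and amnionless and recruits clathrin. Its levels ranged from 726 to 917 CPM in control kidneys around a median of 845. Rilmenidine kidneys 1 to 4 had 732, 741, 701 and 669 CPM. All 4 rilmenidine kidneys lay below controls 1, 3, 4 and 5, and they overlapped with controls 2 and 6, which had 726 and 733 CPM. The means were 821 ± 75.7 (SD, n = 6) and 711 ± 32.7 (SD, n = 4) CPM, and the log2 fold change was −0.21 (95% interval −0.46 to 0.04, p-value 0.0998, adjusted p-value 0.561 in the quasi-likelihood test). The spread among rilmenidine kidneys, with a coefficient of variation of 4.60%, was the smallest of the 8 genes in that group.

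Clcn5 (ENSMUSG00000004317; chromosome X, 7153810 to 7319358) encodes the exchanger ClC-5 of early endosomes, and male mice carry 1 copy of it. Control kidneys had 188 CPM at the lowest, 217 at the median and 281 at the highest. Rilmenidine kidneys 1 to 4 had 152, 135, 166 and 193 CPM. Kidneys 1, 2 and 3 lay below all control kidneys, and rilmenidine 4 lay above controls 2 and 6 only. The means were 220 ± 34.4 (SD, n = 6) and 162 ± 24.6 (SD, n = 4) CPM, a fold change of 0.737 (95% interval 0.598 to 0.908). The log2 fold change was −0.44 (standard error 0.14; p-value 0.00687, adjusted p-value 0.296, quasi-likelihood test). It stood at place 231 of the 10055 genes ordered by p-value. The p-value stayed between 0.00327 and 0.0294 when each kidney was left out in turn, and the adjusted p-value did not fall below 0.154.

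Ocrl (ENSMUSG00000001173; chromosome X, 47912387 to 47965868), the phosphatase gene of the oculocerebrorenal syndrome of Lowe, is also present in 1 copy in males. It was the member with the fewest reads, 14 to 56 counts per library. Control kidneys had 11.3 to 17.1 CPM with a median of 15.3, and rilmenidine kidneys 1 to 4 had 11.6, 16.3, 7.35 and 17.5 CPM. Rilmenidine 3 had the lowest level and rilmenidine 4 the highest level of all kidneys. The log2 fold change was −0.16 with a wide 95% interval from −0.71 to 0.38 (adjusted p-value 0.879 in the quasi-likelihood test), and it was 0.05 without rilmenidine 3.

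Lrpap1 (ENSMUSG00000029103; chromosome 5, 35091501 to 35105766) encodes RAP, which keeps ligands off megalin until the receptor leaves the endoplasmic reticulum. Control kidneys ranged from 502 to 613 CPM with a median of 555, and rilmenidine kidneys 1 to 4 had 596, 526, 754 and 714 CPM. Rilmenidine 3 and 4 were above all control kidneys, and rilmenidine 2 was below the control median. The log2 fold change was 0.21 (95% interval −0.06 to 0.49, p-value 0.118, adjusted p-value 0.589 in the quasi-likelihood test). It was 0.13 without rilmenidine 3 and 0.30 without rilmenidine 2.

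Fcgrt (ENSMUSG00000003420; chromosome 7, 45092990 to 45103851) encodes the heavy chain of the neonatal Fc receptor, whose light chain is the product of B2m. Control kidneys had 29.0 CPM at the lowest, 49.3 at the median and 78.6 at the highest. Rilmenidine kidneys 1 to 4 had 101, 51.0, 77.0 and 50.0 CPM. It varied most among the control kidneys, with a coefficient of variation of 35.0% in control and 35.1% in rilmenidine kidneys, against 8.18% to 17.3% for the other members in control kidneys. The log2 fold change was 0.44 (95% interval −0.08 to 0.96, p-value 0.0948, adjusted p-value 0.550 in the quasi-likelihood test), and 0.21 without rilmenidine 1. Its unadjusted p-value was 0.0119 (adjusted p-value 0.464) in that test when genes with at least 1 count in any sample were kept. The unadjusted p-value of Fcgrt was 0.212 with log2 Malat1 as a covariate, and 0.0324 to 0.399 when each kidney was left out. B2m, looked up after the values of Fcgrt were seen, had a log2 fold change of 0.21 (adjusted p-value 0.741).

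**Figure D2:**
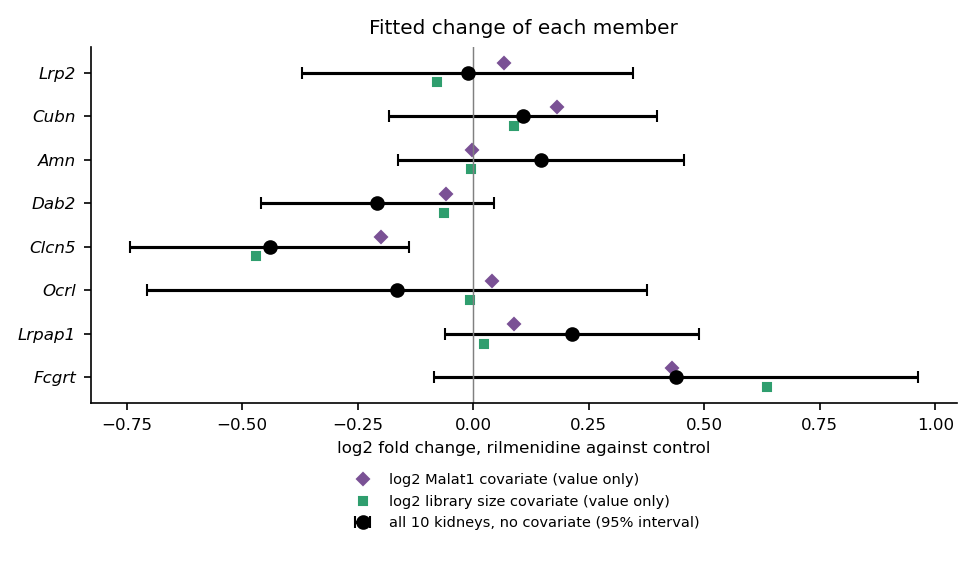
Log2 fold change of each member (horizontal axis, rilmenidine against control) with its 95% interval in black, and the value with log2 Malat1 (diamonds) or log2 library size (squares) as a covariate. The interval of Clcn5, −0.74 to −0.14, is the only one of the 8 that leaves out 0, and its diamond lies at −0.20.

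Levels of different genes were set side by side as CPM per kilobase of the longest annotated transcript, and then as CPM without that division. In control kidneys this gave 187 ± 15.3 (SD, n = 6) for Lrpap1 and 176 ± 16.2 for Dab2, which did not differ beyond their spread. Amn had 71.9 ± 12.5 and Lrp2 68.1 ± 10.7 CPM per kilobase, again within their spread. Fcgrt followed with 29.3 ± 10.2 and Clcn5 with 26.2 ± 4.10, and Cubn and Ocrl were lowest with 5.10 ± 0.440 and 2.84 ± 0.369. The library protocol reads the ends of transcripts, and division by length lowers the values of the long transcripts of Lrp2 (15460 bases) and Cubn (11262 bases). As CPM without division by length the order turned, with Lrp2 first (1053 CPM in control kidneys), then Dab2 (821) and Lrpap1 (558). Clcn5 (220), Amn (122), Cubn (57.5), Fcgrt (51.8) and Ocrl (14.9) followed. The order of levels thus depends on the scale, and division by length is less suited to reads from transcript ends. In rilmenidine kidneys the order of the 8 genes per kilobase was the same, from 217 for Lrpap1 to 2.51 for Ocrl. Without that division, Fcgrt (69.9 ± 24.5 CPM, SD, n = 4) stood above Cubn (61.5 ± 8.98) there, within their spread.

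The levels of Clcn5 and Dab2 also differed between the control kidneys with high and those with low Malat1. The 4 control kidneys with high Malat1 had 215 to 281 CPM of Clcn5, and the 2 with low Malat1 had 188 in each case (187.5 and 188.2), next to 135 to 193 in rilmenidine kidneys. Dab2 showed the same order, with 844 to 917 CPM in the 4 control kidneys, 726 and 733 in the 2, and 669 to 741 with rilmenidine. Lrpap1 ran the other way, with 502 to 576 CPM in the 4, 603 and 613 in the 2, and 526 to 754 with rilmenidine. Cubn had 56.1 to 66.4 CPM in the 4 and 52.2 and 54.5 in the 2, but 49.9 to 71.4 with rilmenidine. For the remaining members these 2 sets of control kidneys overlapped. The share of all genes that separate these small sets was not counted, so the separation is not read as a trait of the members. With log2 Malat1 as a covariate the log2 fold change of Clcn5 was −0.20 (standard error 0.15, unadjusted p-value 0.201), that of Dab2 −0.06 and that of Lrpap1 0.09. Among the 6 kidneys under 1000 CPM of Malat1, 2 control and 4 rilmenidine, that of Clcn5 was −0.21 (unadjusted p-value 0.238). Since all high values of Malat1 were in control kidneys, Malat1 and diet cannot be fully told apart here.

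**Figure D3:**
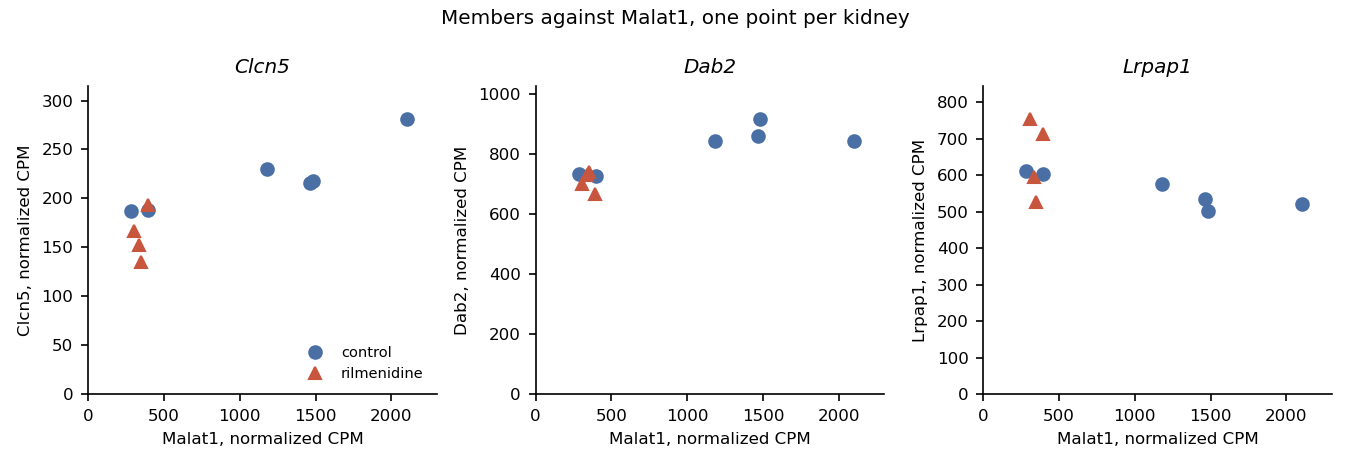
Normalized CPM of Clcn5, Dab2 and Lrpap1 (vertical axes, from 0) against Malat1 (horizontal axis, normalized CPM), 1 point per kidney, circles for control and triangles for rilmenidine. The 4 control kidneys with 1182 to 2100 CPM of Malat1 stand highest for Clcn5 and Dab2, and the 2 control kidneys with 284 and 398 CPM lie beside the rilmenidine kidneys.

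Library depth was another feature looked at. Total counts ran from 863605 to 2559118 in control and from 1813465 to 3232063 in rilmenidine libraries. These ranges overlap, and the difference in depth was not tested. With log2 library size as a covariate, Clcn5 kept a log2 fold change of −0.47 (unadjusted p-value 0.0258, adjusted p-value 0.975 in the quasi-likelihood test). Those of Dab2 and Lrpap1 came to −0.06 and 0.02. Reads on receptor genes of the nose (Olfr and Vmn families) reached 10 CPM or more in 5 control and 2 rilmenidine libraries. Among these 7, Clcn5 had −0.66 (unadjusted p-value 0.00291, adjusted p-value 0.318). Only 1 control was under 10 CPM, so that set of 3 libraries gave no value.

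A whole kidney holds many cell types, so the members were also read against genes of the cells that use them. In bulk tissue, fewer cells of a type and less RNA per cell cannot be told apart. The sum of 11 proximal tubule markers, without the very abundant Kap, was 17874 ± 447 (SD, n = 6) CPM in control and 17702 ± 1758 (SD, n = 4) CPM in rilmenidine kidneys (p = 0.819, two-sided exact permutation test over 210 splits). Relative to that sum, Clcn5 was lower by a log2 difference of −0.42 (two-sided exact permutation p = 0.00952, unadjusted, 1 of 8 such ratios computed). Lrpap1 had 0.22 (exact permutation p = 0.0476, unadjusted) and Dab2 −0.18 (exact permutation p = 0.0667, unadjusted). The other 5 members had exact permutation p-values from 0.186 to 0.962. The smallest p that 210 splits allow is 0.00476, and 0 of 8 ratios passed 0.05 after Benjamini-Hochberg adjustment. Against Slc34a1 alone, the phosphate transporter of the proximal tubule, Clcn5 had −0.40 (exact permutation p = 0.1). Slc34a1 (5082 to 7010 CPM) and Acsm2 (5216 to 7782 CPM) were the largest parts of the marker sum. The reading against Slc34a1 is therefore not independent of the reading against the sum.

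Unadjusted p-values of the quasi-likelihood test were under 0.05 for 1 of 3 tested thick limb markers and 2 of 4 of the distal convoluted tubule. They were so for 2 of 5 of the collecting duct and 0 of 12 of the proximal tubule, beside 10.6% of all genes. The lists are short, so these counts do not tell the segments apart, and their part in the members' values was not tested. In the thick limb, where 3 of 3 tested markers had log2 fold changes above 0, the sum was 1452 to 2119 CPM in control and 1738 to 2678 in rilmenidine kidneys, and Umod had 0.61. In the distal convoluted tubule 4 of 4 were below 0, the sum was 755 to 1254 and 592 to 988 CPM, and Slc12a3 had −0.55 and Trpm6 −1.01. In the collecting duct 4 of 5 were above 0, the sum was 287 to 397 and 324 to 440.1 CPM, and the water channels Aqp2 and Aqp3 had 0.58 and 0.34. Of 6 tubular injury markers 3 were tested, with a median of 0.03 and a lowest value of −0.12, and Spp1 had 0.54. Havcr1, an injury marker of the proximal tubule described here after its values were seen, was not tested for low counts. It had 1.17 to 11.6 CPM in control kidneys and 1.74, 11.4, 45.5 and 28.1 CPM in rilmenidine kidneys 1 to 4. Rilmenidine 3 and 4, where Havcr1 was highest, were also the kidneys with the highest Lrpap1 and the lowest Dab2. They were the deepest libraries too, with 3042036 and 3232063 counts. Their reads on receptor genes of the nose were 4.27 and 7.43 CPM, against 98.7 and 436 in rilmenidine 1 and 2. Some proximal tubule markers set the same kidneys apart, in both directions. Slc22a7 had 118 and 136 CPM in rilmenidine 3 and 4 against 33.1 and 40.2 in rilmenidine 1 and 2. Slc22a8 had 629 and 848 against 1097 and 1279 CPM. In rilmenidine kidneys 1 to 4, Spp1 had 226, 264, 188 and 181 CPM and Clu had 161, 107, 78.4 and 125 CPM. Vcam1 had 3.48, 5.97, 5.95 and 9.06 CPM in them. Whether Havcr1 and the members are linked was not tested. No marker passed an adjusted p-value of 0.05, and no tested marker of podocytes, endothelium, immune cells, fibroblasts, blood or liver had an unadjusted p-value under 0.05.

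Few pairs of members varied together from kidney to kidney. Over 28 pairs and 10 kidneys, 0 pairs passed an adjusted p-value of 0.05 by Pearson's r (2 had an unadjusted p-value under 0.05 in permutation tests with 100000 resamples), and 1 pair passed by Spearman's rho. Pearson's r was above 0 in 13 pairs. The receptors Lrp2 and Cubn had r = 0.65 (permutation p = 0.0448, adjusted 0.467) and rho = 0.77 (permutation p = 0.0128, adjusted 0.179). Without control 2 and rilmenidine 1, the kidneys with low Lrp2, r was 0.45. With group means removed r was 0.69 (permutation p = 0.0286, adjusted 0.400). Cubn and Amn, which form one receptor complex, had r = −0.05 (permutation p = 0.883, adjusted 0.919) and rho = −0.02 (permutation p = 0.974, adjusted 0.974), and r = −0.50 without rilmenidine 1 and 3. Within the 6 control kidneys the pair had r = −0.84 (exact permutation p = 0.025, adjusted 0.35).

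The pair that passed by rank was Dab2 and Lrpap1 (adjusted permutation p-value of rho 0.0361). How often pairs of other genes pass in these kidneys was not tested, so the call is not read as a trait of the members. With the mean of each diet group removed, 0 of 28 pairs passed an adjusted p-value of 0.05 by Pearson's r, and this pair had r = −0.71 (permutation p = 0.0243, adjusted 0.400). Its kidneys fell into separate sets, 4 control kidneys with 844 to 917 CPM of Dab2 and the other 6 kidneys with 669 to 741, so the coefficient over all kidneys is not given. Within the 6 kidneys, r was −0.82 (exact permutation p = 0.0389, adjusted 0.926 over 28 pairs) and rho was −0.77 (exact permutation p = 0.103). The kidney with the highest Dab2, control 1, had the lowest Lrpap1.

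**Figure D4:**
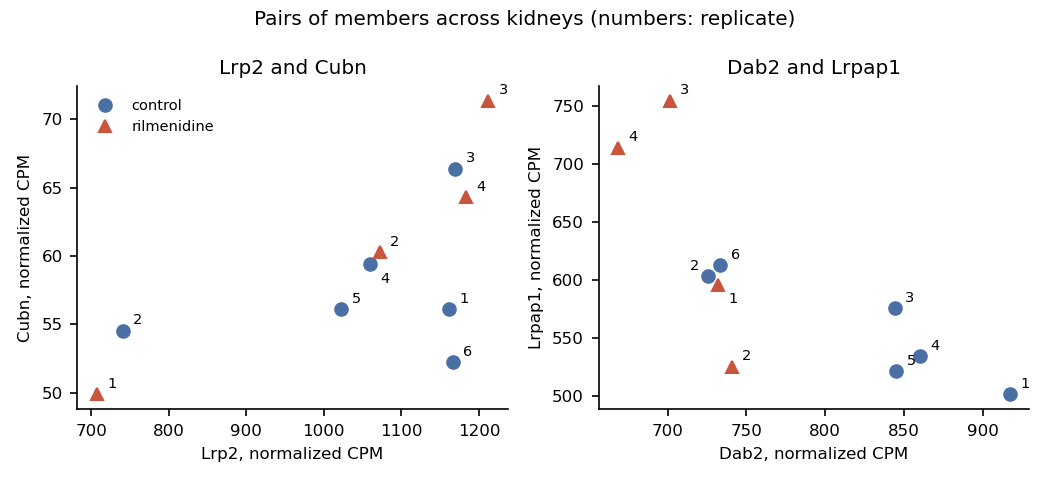
Normalized CPM of Cubn against Lrp2 (left) and of Lrpap1 against Dab2 (right), 1 point per kidney with its replicate number, circles for control and triangles for rilmenidine. Control 2 and rilmenidine 1 stand apart at 741 and 707 CPM of Lrp2, and the 4 control kidneys with 844 to 917 CPM of Dab2 have 502 to 576 CPM of Lrpap1.

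The genes whose levels were most like those of Lrp2 over the 10 kidneys, of 10012 compared, were Rmnd5a (r = 0.94), Kdm1b (0.93), Nap1l1 (0.93), Ccdc25 (0.93) and Etnk1 (0.91). These values are a description of which genes share the low levels of control 2 and rilmenidine 1. Rmnd5a, for example, had 56.2 and 50.3 CPM in these kidneys and 70.5 to 83.5 in the other 8.

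Further genes of the pathway were taken from 9 lists. Of 120 listed genes 105 were tested, and 0 passed an adjusted p-value of 0.05 in edgeR's quasi-likelihood test. The unadjusted p-value was under 0.05 for 10 genes (9.52%), 6 higher and 4 lower, beside 10.6% of all genes. Log2 fold changes were above 0 for 50.3% of all genes tested. Whether the share above 0 in a list differs from this was not tested.
Among 18 genes of the clathrin coat and its adaptors, 10 had log2 fold changes above 0 (median 0.09). Clta, a clathrin light chain, had 0.39 (unadjusted p-value 0.0346), and Fcho2, which starts clathrin pits, had −0.47 (unadjusted p-value 0.0472). Both had an adjusted p-value of at least 0.439. Among 23 genes of endosomes and recycling, 18 were above 0 (median 0.03). The endosomal adaptor Appl2 had the largest difference, −0.78 (standard error 0.25, p-value 0.00560, adjusted p-value 0.286 in the quasi-likelihood test), and the retromer subunit Vps29 was highest at 0.31. With log2 Malat1 as a covariate Appl2 had −0.19 (unadjusted p-value 0.416), Vps29 0.06 and Clta 0.03, and with log2 library size Appl2 had −0.37 (unadjusted p-value 0.183). Eea1, a tether of early endosomes named after its value was seen, had −0.51 (unadjusted p-value 0.00745, adjusted p-value 0.303). It had 77.3 to 137 CPM in control and 61.9 to 86.4 CPM in rilmenidine kidneys, which overlap.

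Phosphoinositide enzymes, the class of Ocrl, were above 0 for 4 of 13 genes with a median of −0.08. Fig4, a phosphatase of endosomal lipids, had 0.50 (unadjusted p-value 0.0242, adjusted p-value 0.389), and Pik3r4 was lowest at −0.33. Of 8 other genes of the CLC channels and exchangers and their partners, 4 were above 0 and none had an unadjusted p-value under 0.05. Ostm1, the partner of ClC-7, was lowest at −0.38. Of 10 other genes of the LDL receptor family and sorting receptors, 5 were above 0. Sorl1 had 0.44 (unadjusted p-value 0.0279, adjusted p-value 0.401), and Lrp1 was lowest at −0.62 with a standard error of 0.43.

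Genes of proteins that megalin and cubilin bind were above 0 for 8 of 10 tested (median 0.28). Apom, the carrier of sphingosine phosphate in plasma, had 0.88 (standard error 0.33, unadjusted p-value 0.0173, adjusted p-value 0.350), Apoh, named after its value was seen, had 0.52 (unadjusted p-value 0.0248) and Ttr was lowest at −0.03. With log2 Malat1 as a covariate Apom had 0.21 (unadjusted p-value 0.525), and with DESeq2 its unadjusted p-value was 0.052. These are transcripts made in the kidney and say nothing of the protein filtered from plasma. Genes that handle vitamins after uptake were above 0 for 5 of 12. Cyp24a1, the enzyme that inactivates vitamin D, was lowest at −0.70 (standard error 0.24, unadjusted p-value 0.0109, adjusted p-value 0.321), and Abcd4, of cobalamin export from lysosomes, was highest at 0.44. Cyp27b1, which activates vitamin D, had 0 to 18 counts and was not tested. The apical scaffold genes Ezr and Slc9a3r1 had −0.04 and −0.01. Of 8 proximal tubule transcription factors tested, 2 were above 0, and Maf was lowest at −0.23 (unadjusted p-value 0.116).

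**Figure D5:**
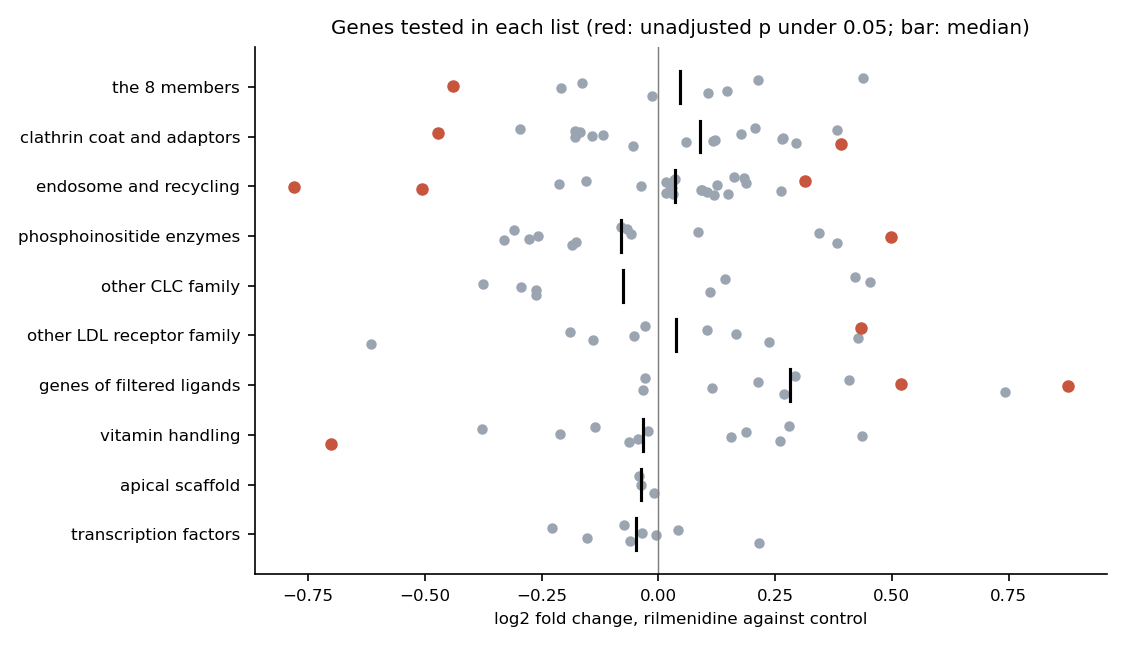
Log2 fold change (horizontal axis, rilmenidine against control) of each tested gene in the 8 members and the 9 other lists, with red points for an unadjusted p-value under 0.05 and a bar at the median of each list. Medians lie between −0.08 and 0.28, and 10 of 105 genes outside the members are red.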

How the data were processed

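The deposited counts are reads per Ensembl gene in 10 kidney libraries, 6 control and 4 rilmenidine, assigned by their labels. The authors trimmed reads with Trimmomatic 0.32, mapped them to mm10 with STAR 2.5.2b and counted them with featureCounts 1.5, and deposited the counts without normalization. The strand setting, annotation release and handling of molecular identifiers are not given in the sources used here, so counts were used as reads. If duplicate reads were kept, counts overstate the number of molecules. Exons of Cubn and Dab2 overlap an annotated gene on the opposite strand, and that of Cubn (Gm13270) had 0 to 3 counts. The study's methods give 8 control kidneys, and 6 were used here.

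A gene was kept if 66.6% of samples or more had 6 or more of its reads. Libraries were normalized by RLE and fitted without covariates on all 10 libraries in edgeR 4.0.16 (R 4.3.3) with the quasi-likelihood test, after the study's filter and normalization. P-values were adjusted by Benjamini-Hochberg over all genes tested. CPM use the scaled library sizes, and logarithms of CPM a prior count of 2. The code was tested on simulated data. Coordinates are from GENCODE M21 (GRCm38, the build mm10) and promoter sequences from RefSeq (GRCm38.p6), where all 8 genes matched by symbol. No pair of libraries held the same counts within sampling noise (lowest chi-square per degree of freedom 4.1). Total counts of 863605 to 3232063 per library limit genes with few reads.

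Named pathway genes are those with the smallest p-value and with the highest and lowest log2 fold change of each list. Some of these genes and some of the motifs searched are not reported here. The 8 genes, the lists and the tests were chosen with earlier results of these data known. Alternatives were TMM, other filters on low counts, DESeq2 1.42.0, the likelihood ratio test, covariates, a replicate block and leaving out each kidney. Subsets by Malat1 and by receptor genes were chosen after seeing the data.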

Additional observations from a re-analysis of the deposited data

Results flagged for a closer look

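Within-group outliers were looked for by Dixon's test at the 95% level in 52 groups of kidneys, of which 16 were groups of the 8 members. Chance flags about 1 in 20 groups, and 5 of 52 were marked. Lrp2 in control 2, at 741 CPM, lay far below the other 5 control kidneys (1023 to 1169 CPM). Ocrl in control 6, at 11.3 CPM, lay below the other controls (14.9 to 17.1 CPM). Among the pathway genes, Fig4 had 23.4 CPM in rilmenidine 4 against 36.4 to 37.1 in the other rilmenidine kidneys. Sorl1 had 68.2 CPM in control 6 against 35.9 to 45.1 in the other controls, and Cyp24a1 had 92.1 CPM in control 3 against 33.7 to 54.2.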

How the results depend on the processing

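The count of members at an adjusted p-value under 0.05 was 0 in all 20 other settings (lowest adjusted p-value 0.154, for Clcn5 without control 2), and 147 of 160 fitted values of members kept their direction and their side of the threshold. The count over all genes was 0 with the main settings, and it was 241 when genes with at least 1 count in any sample were kept, 60 with DESeq2, 44 with the likelihood ratio test, 3 with the replicate block, and 0 to 37 when each kidney was left out (33 without control 2, 37 without control 6, 6 without rilmenidine 1). The cause was not tested. Pathway genes called were 3 with genes of at least 1 count kept (Appl2, Apom and Cyp24a1) and 0 otherwise, while those at an unadjusted p-value under 0.05 were 5 to 17 when each kidney was left out (17 without control 2, 5 without rilmenidine 1, 6 without control 4 or control 5), 5 with log2 library size, 3 with log2 Malat1 and 2 in kidneys under 1000 Malat1 CPM. The count over all genes moved too, from 1061 of 10055 to 1374 of 10164 without control 2, 432 of 10055 with log2 library size, 305 of 10055 with log2 Malat1 and 347 of 10773 in kidneys under 1000 Malat1 CPM. Same-numbered kidneys did not deviate together (correlations −0.08 to 0.08), nothing says that the numbers mark a shared litter or day, and the replicate block changed no call of a member (Clcn5 −0.40, Lrp2 0.011). The members' median log2 fold change was −0.12 in libraries with at least 10 receptor CPM and −0.0016 to 0.16 when each kidney was left out.

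Where directions turned, the cause was not tested. With log2 library size as a covariate they were those of Amn (−0.0059) and Slc9a3r1 (0.086). With log2 Malat1 they were those of Lrp2 (0.066), Amn (−0.0030), Ocrl (0.040) and Fcho2 (0.062), and in kidneys under 1000 Malat1 CPM those of Lrp2 (0.13), Amn (−0.048), Fcho2 (0.12) and Slc9a3r1 (0.029). In libraries with at least 10 receptor CPM they were those of Cubn (−0.085) and Ezr (0.018). Relative to Slc34a1 alone, Lrp2 turned to 0.012. With each kidney left out, the ranges were −0.096 to 0.13 for Lrp2, −0.36 to 0.049 for Ocrl, −0.25 to 0.14 for Ttr, −0.090 to 0.016 for Ezr and −0.061 to 0.044 for Slc9a3r1, and for the ratios to proximal tubule markers −0.10 to 0.20 for Lrp2 and −0.43 to 0.022 for Ocrl. P-values cover the spread among these kidneys.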
